A study of Mus musculus with 4 samples.

Results

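The genes described here are the 10 that encode the ligands, receptors and latency proteins of transforming growth factor beta (TGF-beta): Tgfb1, Tgfb2 and Tgfb3, Tgfbr1, Tgfbr2 and Tgfbr3, and Ltbp1, Ltbp2, Ltbp3 and Ltbp4. They were taken by symbol from a table of 32948 genes, and all 10 were found and passed the filter on low counts that left 15055 genes for testing. Messenger RNA was measured with SMART-seq, a full-length method for small inputs, in cells from the arch and ascending part of the aorta. The mice were Wnt1-Cre;Rosa26-mTmG. All animals carried both the Cre and the reporter, whose cells have a red membrane protein, tdTomato, until Cre acts and a green one, GFP, in that cell and its descendants afterwards. Wnt1 regulatory sequences drive Cre in the neural crest, embryonic cells from which some of the arch's smooth muscle descends. The 4 libraries were female GFP, male GFP, female tdTomato and male tdTomato. The female suspension came from 1 sample and the male suspension was a pool of 2 samples, and each was sorted by colour alone. The sources used here give neither age nor background strain. No combination of sex and colour was replicated, and sex cannot be told apart from suspension or from pooling.

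TGF-beta is secreted in a latent form. Its propeptide stays folded around the growth factor, and a latent TGF-beta binding protein (LTBP) holds this complex in the fibrillin-rich matrix until integrins or proteases free the ligand. Free ligand binds the type II receptor (Tgfbr2), which activates the type I receptor kinase (Tgfbr1), and the type I kinase phosphorylates Smad2 and Smad3. In the aortic wall the pathway shapes smooth muscle differentiation and matrix, and in humans inherited mutations of several of these genes cause aneurysms of the thoracic aorta.

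The libraries held 10094167 to 13911111 counts, and 9517 to 16227 genes had at least 10 counts, fewest in male GFP and fewer in each GFP library than in its tdTomato partner. A count of 0 allowed a level of up to 0.201 to 0.319 CPM, the worth of 3 counts, where CPM is the count scaled to a common library size, from library totals corrected by TMM (trimmed mean of M values) factors. Intervals and bounds cover counting error only. The submitters labelled all cells as vascular smooth muscle. All 15 contractile smooth muscle markers were detected in every library, with summed levels of 22394 and 22688 CPM in female and male GFP against 19524 and 18297 CPM in female and male tdTomato. The 15 endothelial markers summed to 113 and 687 CPM in female and male GFP, against 559 and 365 CPM in female and male tdTomato, with 5 and 9 of them at 0 in the GFP libraries and none in the tdTomato ones. Erg alone gave 549 CPM of the male GFP sum. The 15 adventitial fibroblast markers summed to 4296 and 1566 CPM in female and male GFP, against 4139 and 5259 CPM in female and male tdTomato, with 2 and 3 of them at 0 in the GFP libraries. Pdgfra, the defining receptor of fibroblasts, stood at 0 and 0.426 CPM in female and male GFP, against 68.6 and 61.9 CPM in female and male tdTomato. Mfap5, of the same list, was higher in GFP, at 377 and 955 CPM in female and male GFP, against 298 and 378 CPM in female and male tdTomato. Schwann cell markers summed to 257 and 110 CPM in female and male GFP, against 8.23 and 11.7 CPM in female and male tdTomato. Melanocyte markers summed to 212 and 136 CPM in female and male GFP, against 94.0 and 86.0 CPM in female and male tdTomato. The higher GFP sum came from Dct and Tyr, and Tyr was near-equal in the male suspension. Dct stood at 127 and 114 CPM in female and male GFP, against 35.1 and 39.8 CPM in female and male tdTomato. Mitf and Kit went the other way. Mitf stood at 0.238 and 2.66 CPM in female and male GFP, against 13.2 and 7.48 CPM in female and male tdTomato. Kit stood at 0 and 0.213 CPM in female and male GFP, against 7.69 and 19.9 CPM in female and male tdTomato. Pericyte markers summed to 599.8 and 2195 CPM in female and male GFP, against 862 and 635 CPM in female and male tdTomato, and macrophage and monocyte markers to 30.5 and 0.639 CPM in female and male GFP, against 42.9 and 86.9 CPM in female and male tdTomato. Rgs5 alone gave 1690 CPM of the male GFP pericyte sum, and Cd14 gave 24.1 CPM of the female GFP macrophage and monocyte sum. Of the 9 matched macrophage and monocyte markers, 7 and 5 were at 0 in female and male GFP and none in tdTomato. Some markers of other cell types were thus found in both colours, and their part in the differences given next was not tested. In bulk libraries, fewer cells of a type and less RNA per cell cannot be told apart.

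The ligands differ in a stretch of the propeptide that integrins grip, the RGD motif, and the codons are shown because the 3 ligand genes behaved differently in these libraries. In the lines below, taken from the GENCODE M21 transcripts of build GRCm38, capitals mark the in-frame codons of that motif. The motif begins at codon 244 of 390 in Tgfb1 and at codon 261 of 412 in Tgfb3, and no in-frame RGD codons were found in either protein-coding transcript of Tgfb2 (414 and 442 codons).
Tgfb1: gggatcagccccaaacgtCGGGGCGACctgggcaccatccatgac
Tgfb3: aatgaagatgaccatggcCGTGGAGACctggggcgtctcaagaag

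Promoters are shown for 3 of the 4 genes whose GFP and tdTomato libraries did not overlap. Of these 4, Tgfb2, Tgfbr1 and Tgfbr2 had both GFP libraries above both tdTomato ones, as did 11.5% of all genes, and Ltbp4 had both below, as did 29.3%. The sequences are RefSeq windows of build GRCm38.p6 upstream of the annotated start, read 5′ to 3′ on the gene's own strand. Tgfbr1 lies at chr4:47352972-47353221 on the plus strand, Tgfb2 at chr1:186705990-186706239 on the minus strand, and the printed part of the Ltbp4 window at chr7:27337693-27337862 on the minus strand. Capitals mark the GC box, the site of Sp-family factors (GGGCGG, or CCGCCC on the other strand), and the TATA box (TATAAA, or TTTATA on the other strand).
Tgfbr1: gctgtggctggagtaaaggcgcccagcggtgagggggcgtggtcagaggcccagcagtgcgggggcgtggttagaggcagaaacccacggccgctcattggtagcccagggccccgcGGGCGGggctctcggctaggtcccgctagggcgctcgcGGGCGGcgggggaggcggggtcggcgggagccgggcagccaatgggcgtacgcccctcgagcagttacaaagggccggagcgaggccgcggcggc
Tgfb2: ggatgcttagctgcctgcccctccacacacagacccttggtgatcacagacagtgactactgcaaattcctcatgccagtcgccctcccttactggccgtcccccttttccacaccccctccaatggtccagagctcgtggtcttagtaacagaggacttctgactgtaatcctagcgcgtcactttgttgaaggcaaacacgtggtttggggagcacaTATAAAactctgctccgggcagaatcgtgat
Ltbp4: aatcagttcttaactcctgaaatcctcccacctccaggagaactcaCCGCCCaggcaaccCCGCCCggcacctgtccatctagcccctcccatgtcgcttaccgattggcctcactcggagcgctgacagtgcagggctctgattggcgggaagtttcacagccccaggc

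Over the 250 bases before the start, the Tgfbr1 window had a GC content of 74.8% and held 2 GC boxes and no TATA box. The Ltbp4 window had a GC content of 64.4% and held 3 GC boxes, of which 2 fall in the printed part, and no TATA box. The Tgfb2 window had a GC content of 53.6% and held 1 TATA box and no GC box. It also held 2 copies of the short SMAD-binding sequence CAGAC (or GTCTG), which was absent from the Tgfbr1 and Ltbp4 windows. The Tgfbr2 window, which is not printed, held 1 copy and no GC or TATA box. Copies were also found in the windows of Ltbp1 (1), Ltbp2 (2) and Ltbp3 (1), and none in that of Tgfb1. Of 32851 mouse promoter windows of that length, 32.7% held a GC box, 12.4% a TATA box and 42.2% the SMAD-binding sequence, and the median GC content was 52.4%. GC and TATA boxes did not overlap. RefSeq windows were matched for 8 of the 10 genes, all but Tgfb3 and Tgfbr3.

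Compared with tdTomato cells, GFP cells had more of the type I receptor transcript and less of Ltbp4 in both suspensions, and the other 8 genes differed by less than 2-fold in at least one of the suspensions. No difference passed the test over the 2 suspensions. edgeR's quasi-likelihood test with the suspension as a block and Benjamini-Hochberg adjustment called 0 of the 10 genes, and 0 of all 15055 genes (0%), the smallest adjusted p over all genes being 0.577. Unadjusted p was under 0.05 for 1298 genes (8.62%) and for none of the 10. DESeq2 on the same design called 1109 genes (7.37%), of which 1065 (7.07%) were lower in GFP, and limma-voom 0, and neither called any of the 10. The 2 suspensions are the only replicates, so these p-values rest on the spread between them, and they differ in sex and pooling. By fold alone, 1 of the 10, Tgfbr1, was at least 2-fold higher in GFP in both suspensions, where 5.17% of all genes were. Likewise 1 of the 10, Ltbp4, was at least 2-fold lower in both, where 22.9% of all genes were. Regardless of size, 4 of the 10 (Tgfb1, Tgfb2, Tgfbr1 and Tgfbr2) were on the GFP side in both suspensions and 1 (Ltbp4) on the tdTomato side, against 16.7% and 36.4% of all genes. Of the 4, Tgfbr2 changed sign in the female suspension with library totals, and the counting intervals of Tgfb1 included 1 in both suspensions. Fold counts and log2 ratios use a prior count of 2, and folds of single genes use none.

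**Figure D1:**
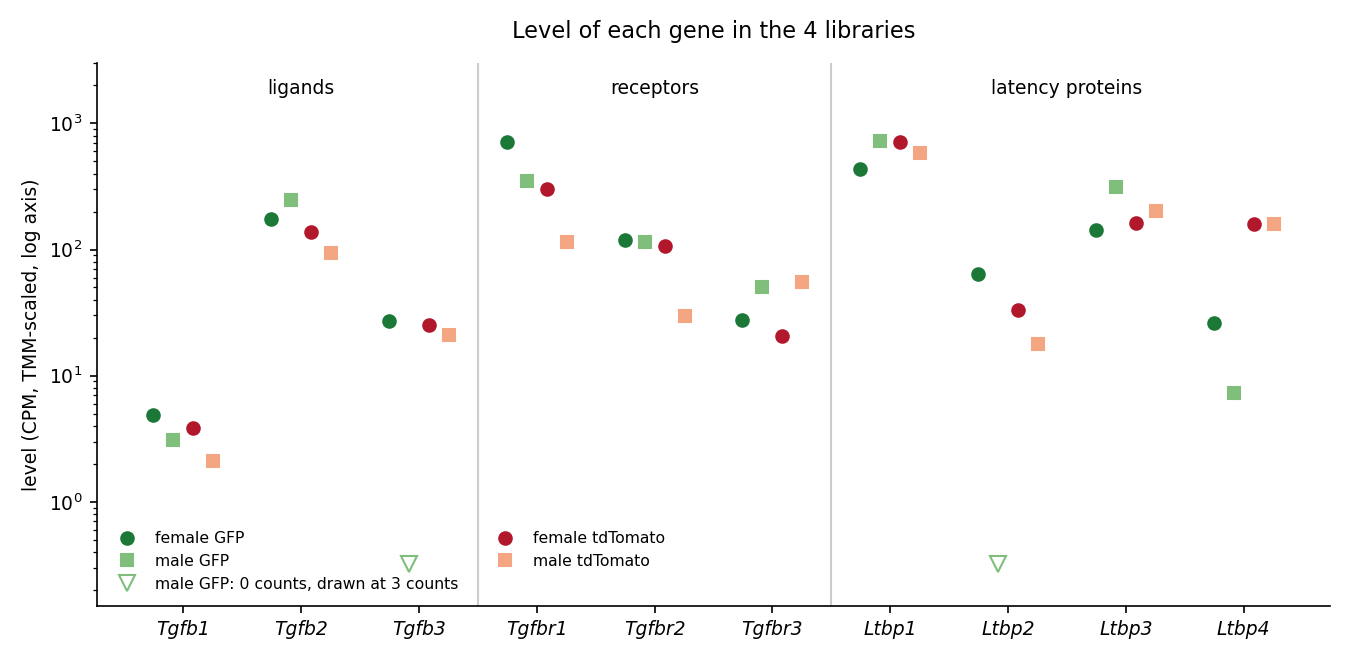
Levels of the 10 genes (CPM after TMM scaling, log axis) in the 4 libraries, 1 symbol per library, with an open triangle for a count of 0 drawn at the worth of 3 counts. For Tgfbr1 both GFP libraries (717 and 352 CPM) lie above both tdTomato libraries, and for Ltbp4 both (26.3 and 7.35 CPM) lie below. Heights of different genes are not adjusted for transcript length.

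Tgfb2 was the most abundant ligand transcript per length in every library. Tgfb2 (ENSMUSG00000039239), the ligand that betaglycan helps to present to its receptors, stood at 175 CPM (female GFP) and 247 CPM (male GFP), against 139 CPM (female tdTomato) and 94.6 CPM (male tdTomato). Both GFP libraries lay above both tdTomato libraries, male GFP being the highest. The GFP level was 1.27-fold that of tdTomato in the female suspension (95% exact binomial interval 1.19 to 1.35) and 2.61-fold in the male one (2.44 to 2.79). The mean log2 ratio, GFP over tdTomato, came to 0.86 ± 0.74 (SD, n = 2 suspensions), so that its spread was almost as large as its size. The edgeR adjusted p was 1.

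Tgfb3 (ENSMUSG00000021253), a ligand active in palate and heart development, was near-equal in 3 libraries and undetected in the other one. It stood at 26.9 CPM (female GFP) and 0 CPM (male GFP), against 25.1 CPM (female tdTomato) and 21.1 CPM (male tdTomato). The counts behind these levels were 340 and 0 in female and male GFP against 375 and 293 in female and male tdTomato. In the female suspension the interval of the fold included 1 (1.07-fold, 0.924 to 1.25), and in the male suspension GFP was at least 66.0-fold lower, with 3 counts in place of 0. Such losses were common in male GFP. Of 3039 genes at 10 to 50 CPM in both tdTomato libraries, 718 (23.6%) were at 0 in male GFP and 337 (11.1%) in female GFP. An edgeR adjusted p of 1 was obtained for Tgfb3 too. Its exons overlap unlisted antisense transcripts by 163 and 257 bases, and the kit does not mark strand.

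Tgfb1 (ENSMUSG00000002603), the ligand best known from fibrosis and immune regulation, was low everywhere. It stood at 4.83 CPM (female GFP) and 3.09 CPM (male GFP), against 3.81 CPM (female tdTomato) and 2.09 CPM (male tdTomato), from 29 to 61 counts per library. The colours overlapped, while both female libraries lay above both male ones, as for 18.9% of all genes. Each suspension's fold interval included 1 (1.27-fold, 0.869 to 1.85, in the female one and 1.48-fold, 0.853 to 2.57, in the male one). A difference in Tgfb1 between the colours was not detectable at this depth.

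The type I receptor gave the clearest difference of the 3 receptors. Tgfbr1 (ENSMUSG00000007613), the kinase that passes the signal to Smad2 and Smad3, stood at 717 CPM (female GFP) and 352 CPM (male GFP), against 299.8 CPM (female tdTomato) and 115 CPM (male tdTomato). Both GFP libraries lay above both tdTomato libraries, and within each colour the female library was the higher one. GFP was 2.39-fold higher in the female suspension (2.31 to 2.48) and 3.05-fold higher in the male one (2.87 to 3.24). The mean log2 ratio was 1.43 ± 0.25 (SD, n = 2 suspensions), the smallest spread relative to its size among the 10 genes. In edgeR's test the unadjusted p was 0.0874 and the adjusted p 0.703.

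Tgfbr2 (ENSMUSG00000032440), the receptor that first captures the ligand, was level in 3 libraries and low in male tdTomato. It stood at 118 CPM (female GFP) and 115 CPM (male GFP), against 107 CPM (female tdTomato) and 29.6 CPM (male tdTomato). The fold was 1.10 in the female suspension (1.03 to 1.18) and 3.90 in the male one (3.48 to 4.38). The female difference changed direction with the scaling: its log2 ratio was 0.14 with TMM and -0.08 with library totals. The mean log2 ratio was 1.05 ± 1.29 (SD, n = 2 suspensions), with an edgeR adjusted p of 1.

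Tgfbr3 (ENSMUSG00000029287), or betaglycan, a co-receptor without a kinase, was higher in both male libraries than in both female ones, as were 13.7% of all genes. It stood at 27.7 CPM (female GFP) and 50.7 CPM (male GFP), against 20.5 CPM (female tdTomato) and 55.3 CPM (male tdTomato). The colours overlapped. The GFP level was 1.35-fold that of tdTomato in the female suspension (1.16 to 1.58), and in the male one the interval included 1 (0.916-fold, 0.815 to 1.03). The male log2 ratio was -0.13 with TMM and 0.11 with DESeq2's size factors. A gene model on the same strand, Gm43422, overlaps its exons by 297 bases and had 3 and 0 counts in female and male GFP against 33 and 3 in female and male tdTomato.

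**Figure D2:**
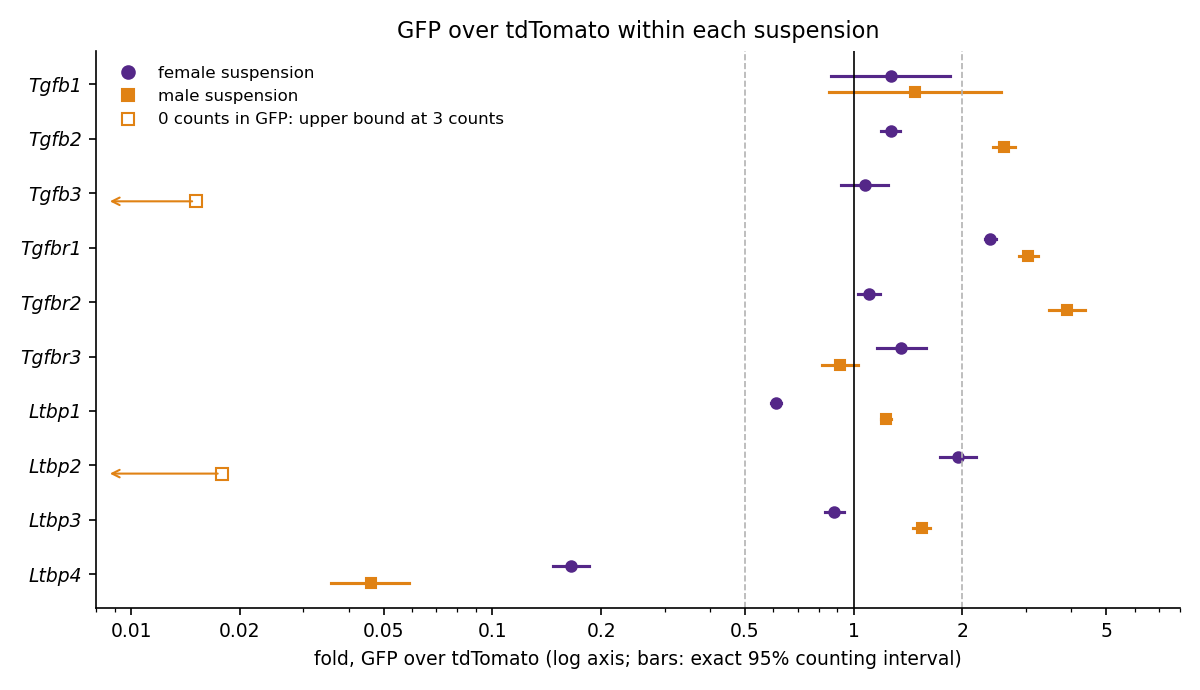
Fold of GFP over tdTomato within each suspension (log axis) for the 10 genes, with bars for the exact 95% counting interval, open squares with arrows for the upper bound where male GFP had 0 counts, and dashed lines at 2-fold. Tgfbr1 lies to the right of the 2-fold line in both suspensions (2.39 and 3.05), Ltbp4 lies far to the left in both, and the intervals of Tgfb1 include 1.

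Among the 10 genes, Ltbp4 had the largest difference of one sign in both suspensions. Ltbp4 (ENSMUSG00000040488), which binds fibulins and helps to assemble elastic fibres, stood at 26.3 CPM (female GFP) and 7.35 CPM (male GFP), against 159.2 CPM (female tdTomato) and 158.8 CPM (male tdTomato). Both GFP libraries lay below both tdTomato libraries, and the tdTomato libraries differed by less than their counting error. GFP was 6.05-fold lower in the female suspension (5.39 to 6.81) and 21.6-fold lower in the male one (17.02 to 27.9). The mean log2 ratio was -3.50 ± 1.28 (SD, n = 2 suspensions). edgeR gave an unadjusted p of 0.0704 and an adjusted p of 0.636. Of the adventitial fibroblast and endothelial markers, 6 of 15 and 11 of 14 tested ones had GFP lower by 2-fold or more in both suspensions, where 22.9% of all genes were. Their part in the Ltbp4 difference was not tested.

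Ltbp1 (ENSMUSG00000001870), a main carrier of the latent complex in matrix, was abundant in all libraries and had no common direction. It stood at 439 CPM (female GFP) and 719.7 CPM (male GFP), against 718.7 CPM (female tdTomato) and 586 CPM (male tdTomato). Female GFP stood below the other libraries. GFP was 1.64-fold lower in the female suspension (1.59 to 1.69) and 1.23-fold higher in the male one (1.19 to 1.27).

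Ltbp3 (ENSMUSG00000024940), which carries latent TGF-beta in bone, among other tissues, went the same opposite ways. It stood at 144 CPM (female GFP) and 311 CPM (male GFP), against 163 CPM (female tdTomato) and 201 CPM (male tdTomato). Male GFP was the high library, with GFP 1.54-fold higher than tdTomato in the male suspension (1.46 to 1.63) and 0.884-fold in the female one (0.832 to 0.940).

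Ltbp2 (ENSMUSG00000002020), which binds fibrillin but not the latent complex, was the second of the genes undetected in male GFP. It stood at 64.4 CPM (female GFP) and 0 CPM (male GFP), against 33.0 CPM (female tdTomato) and 17.9 CPM (male tdTomato). GFP was thus the highest library in one suspension and the lowest in the other. The fold was 1.95 in the female suspension (1.74 to 2.18), and GFP was at least 56.1-fold lower in the male one. For Ltbp1, Ltbp2 and Ltbp3 the edgeR adjusted p was 1. An unlisted antisense transcript overlaps the exons of Ltbp2 by 764 bases.

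Per transcript length, 1 gene of each class led in all 4 libraries. Levels of different genes were compared as CPM per kb of the longest annotated transcript, and shares are of the class sum. Tgfb2 made up 77.7% of ligand transcripts in female GFP (75.8 to 79.5) and 97.6% of them in male GFP (96.5 to 98.4), against 75.3% in female tdTomato (73.3 to 77.2) and 72.4% in male tdTomato (69.9 to 74.8). The exact binomial intervals in parentheses hold lengths and the mix of the other ligands fixed. Male GFP stood apart there, and it was the library without Tgfb3. The share of Tgfb3 was 18.03% and 0% in female and male GFP against 20.6% and 24.4% in female and male tdTomato, and that of Tgfb1 was 2.43% to 4.25%.

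Among receptors, Tgfbr1 held 86.7% (female GFP) and 73.0% (male GFP), against 75.8% in female tdTomato and 61.2% in male tdTomato. Within each suspension, its share was the higher one in GFP. Tgfbr2 held 10.1% and 17.02% in female and male GFP against 19.3% and 11.1% in female and male tdTomato. Tgfbr3 held 3.17% and 9.94% in female and male GFP against 4.90% and 27.7% in female and male tdTomato, and it exceeded Tgfbr2 per length only in male tdTomato. In that library the level of Tgfbr2 per length was 0.402 times that of Tgfbr3, and in the other 3 libraries it was 1.71 to 3.94 times.

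Among latency proteins, Ltbp1 held 62.5% (female GFP) and 66.0% (male GFP), against 63.2% in female tdTomato and 56.6% in male tdTomato. Ltbp4 was 4.63% and 0.834% of the class in female and male GFP against 17.3% and 19.0% in female and male tdTomato. The level of Ltbp1 per length was 13.5 and 79.1 times that of Ltbp4 in female and male GFP, and 3.65 and 2.98 times in female and male tdTomato. Ltbp3 held 23.9% and 33.2% in female and male GFP against 16.7% and 22.7% in female and male tdTomato, and Ltbp2 at most 9.03%.

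**Figure D3:**
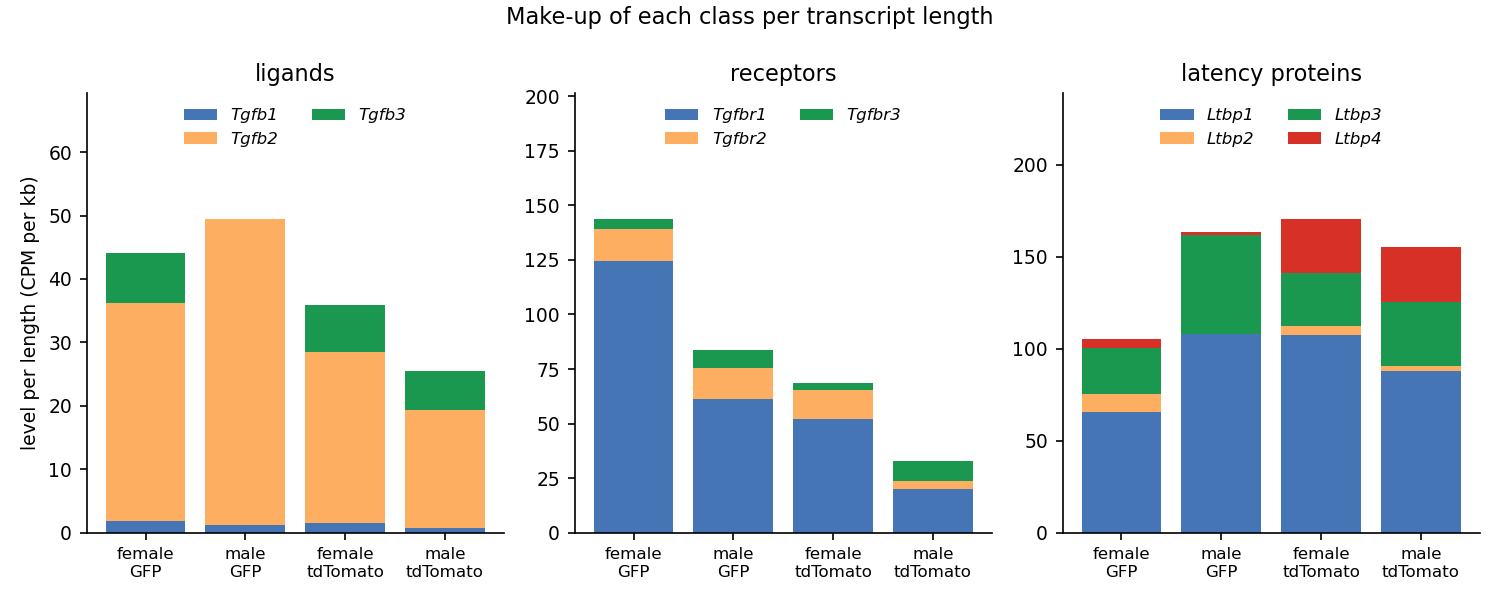
Level per length (CPM per kb of the longest annotated transcript) of each ligand, receptor and latency protein, stacked by class, in the 4 libraries. Tgfb2, Tgfbr1 and Ltbp1 form most of each bar, the receptor bars are higher in GFP than in the tdTomato bar of the same sex, and the Ltbp4 segment nearly vanishes in GFP.

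Summed over each class, receptor transcripts per length were higher in GFP, at 143.7 and 83.8 CPM per kb in female and male GFP against 68.7 and 32.8 CPM per kb in female and male tdTomato. Receptors were thus 2.09-fold and 2.55-fold higher in GFP, and Tgfbr1 made up most of these sums. Ligands summed to 44.1 and 49.5 CPM per kb in female and male GFP against 36.0 and 25.5 CPM per kb in female and male tdTomato (1.23-fold and 1.94-fold). Latency proteins summed to 105 and 163 CPM per kb in female and male GFP against 171 and 155 CPM per kb in female and male tdTomato. With TMM scaling they were 0.617-fold and 1.05-fold, so that their order differed between suspensions. The male fold is smaller than the gap between the TMM factors of male GFP (0.931) and male tdTomato (1.08), so its direction depends on the scaling. These sums have no replicate within a sex and colour and were not tested.

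As a group, the 10 genes had a median log2 ratio of GFP over tdTomato of 0.23 in the female suspension and 0.41 in the male one, where all genes had medians of -0.27 and -0.998. The scaling moved both sets together: with library totals the 10 genes had medians of 0.02 and 0.20 and all genes -0.48 and -1.20, and with DESeq2's size factors 0.36 and 0.65 against -0.15 and -0.78. In the female suspension 1 of the 10 (Ltbp4) was at least 2-fold lower in GFP, as were 37.8% of all genes, and 1 (Tgfbr1) at least 2-fold higher, as were 22% of all genes. In the male suspension 3 of the 10 (Tgfb3, Ltbp2 and Ltbp4) were at least 2-fold lower in GFP, as were 50% of all genes, and 3 (Tgfb2, Tgfbr1 and Tgfbr2) at least 2-fold higher, as were 21.5% of all genes. The signs of the suspensions were opposite for 5 of the 10 genes and for 45.8% of all genes. Of these 5, Tgfb3, Tgfbr3 and Ltbp2 were higher in GFP in the female suspension and lower in the male one, as were 26.8% of all genes, and Ltbp1 and Ltbp3 went the other way, as did 19% of all genes.

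**Figure D4:**
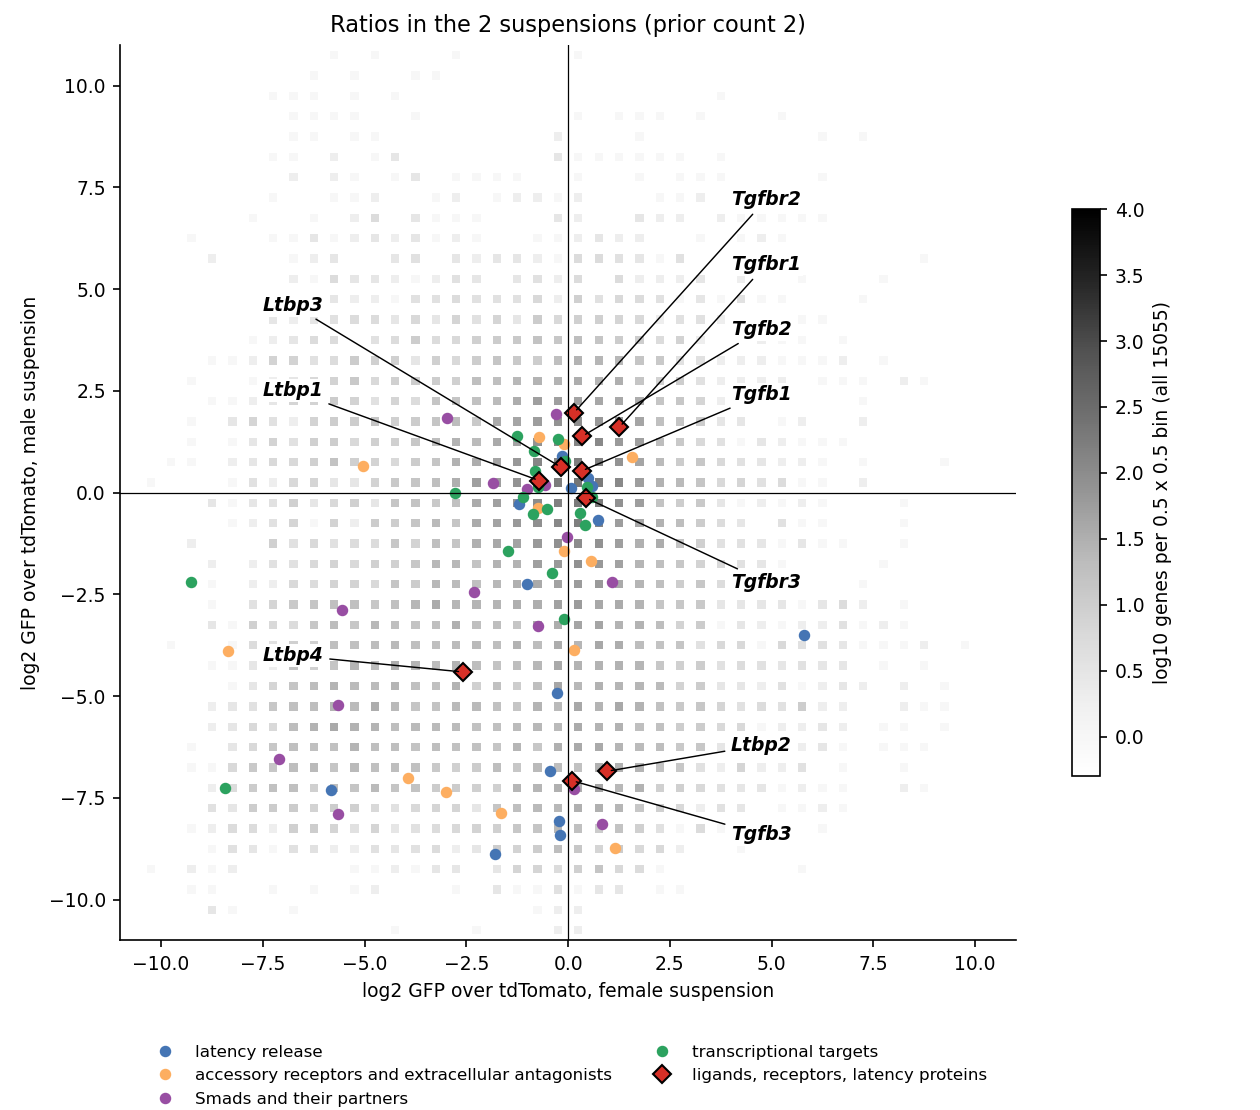
Log2 ratio of GFP over tdTomato in the female suspension (horizontal axis) and in the male suspension (vertical axis), with the 10 genes as labelled diamonds, 62 further pathway genes as coloured circles and all 15055 tested genes as grey bins whose shade is the log10 number of genes. Genes beyond 11 on either axis are not drawn. Tgfbr1 lies in the upper right, Ltbp4 in the lower left, and Tgfb3 and Ltbp2 lie near or right of the vertical line and far below the horizontal one.

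Between the suspensions, set female over male, none of the 10 genes was called. edgeR with sort colour as a block called 0 of 15055 genes (0%), with unadjusted p under 0.05 for 262 genes (1.74%) and for none of the 10, whose smallest unadjusted p was 0.134, for Tgfbr1. DESeq2 called 120 genes (0.797%) and limma-voom 0, none of the 10 among them. Tgfbr1 was 2.04-fold higher in female than male GFP (1.96 to 2.12) and 2.60-fold higher in female than male tdTomato (2.45 to 2.75). It was the 1 gene of 10 at least 2-fold higher in both colours, where 10.3% of all genes were. Tgfbr3 was the mirror case, at 0.547-fold in GFP (0.475 to 0.629) and 0.370-fold in tdTomato (0.323 to 0.423). The female level of Tgfbr2 was close to the male one in GFP (1.02-fold, 0.945 to 1.11) and 3.62-fold higher in tdTomato (3.25 to 4.05). By contrast, Ltbp4 was 3.58-fold higher in female than male GFP (2.75 to 4.71) and level in tdTomato (1.00-fold, 0.945 to 1.06). Both colours were higher in the female suspension for 6 of the 10 and lower for 2 (Tgfbr3 and Ltbp3), against 28.2% and 21.7% of all genes, and none of the 10 was at least 2-fold lower in both, against 6.28%. In GFP, 5 of the 10 were at least 2-fold apart between the suspensions, as were 68.3% of all genes, and in tdTomato 3 of the 10, as were 42.2%. None of these differences had replicates within a sex and colour.

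Genes around the pathway were read from 4 lists, and of 62 tested members edgeR called 0 in each list. At unadjusted p under 0.05, 5 of 62 were lower in GFP (Tnc, Zfyve9, Wwp1, Tgfbrap1 and Lrrc32), where 8.33% of all genes were, and none was higher, where 0.292% were. DESeq2 called 6 of 62, the same 5 and Acvr1, all lower in GFP, where it called 7.07% of all genes lower. limma-voom called 0 of 62. By fold, 15 of 62 were at least 2-fold lower in both suspensions, close to the 22.9% of all genes. No gene of the lists was 2-fold or more higher in both, where 5.17% of all genes were. The counts of genes at least 2-fold lower in both, given next for each list, stand beside the same 22.9% of all genes. The lists' medians were lower than those of the 10 genes, at -0.54 and -0.93 in the female and male suspensions over all 62. All tested genes had medians of -0.27 and -0.998 in the same order, beside which the medians of each list below also stand.

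Of 14 tested genes of latency release (18 listed), with median log2 ratios of GFP over tdTomato of -0.21 in the female suspension and -2.87 in the male one, 3 were at least 2-fold lower in both suspensions, namely Itgb3, Thbs1 and Lrrc32. Lrrc32, which holds latent TGF-beta on the surface of regulatory T cells and platelets, was at 0 in both GFP libraries, against 8.69 and 24.6 CPM in female and male tdTomato. T and B lymphocyte markers summed to 2.38 and 4.79 CPM in female and male GFP, against 7.56 and 68.2 CPM in female and male tdTomato, and their part in this was not tested. Ptprc, a gene of all leukocytes, gave 65.4 CPM of the male tdTomato sum and was at 0 in female tdTomato, where Lrrc32 was detected. Itgav, the integrin subunit whose dimers grip the RGD motif shown above, had 237 and 114 CPM in female and male GFP, against 142 and 180 CPM in female and male tdTomato. Its partner Itgb5 had 88.1 and 282 CPM in female and male GFP, against 97.5 and 151 CPM in female and male tdTomato. Neither subunit had a common direction. Itgb1, another partner subunit, had 650 and 597 CPM in female and male GFP, against 466 and 463 CPM in female and male tdTomato, the largest fold shared by both suspensions on the GFP side of this list. Fibronectin (Fn1), the matrix protein that LTBP deposition first needs, had 892 and 944 CPM in female and male GFP, against 851 and 865 CPM in female and male tdTomato.

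Of 13 accessory receptors and extracellular antagonists, with medians of -0.71 and -1.67 in the same order of suspensions, 4 were at least 2-fold lower in both suspensions: Eng, Acvrl1, Acvr1 and Fmod. Eng, the endothelial co-receptor endoglin, had 0.792 and 0 CPM in female and male GFP, against 14.4 and 20.0 CPM in female and male tdTomato. Of the endothelial markers, Flt1 stood on the GFP side, with 48.3 and 45.6 CPM in female and male GFP, against 36.1 and 27.0 CPM in female and male tdTomato, and the part of endothelial cells in the Eng difference was not tested. Vasn, whose shed ectodomain binds TGF-beta, stood on the GFP side, at 317 and 259 CPM in female and male GFP, against 106 and 141 CPM in female and male tdTomato (2.99-fold and 1.83-fold). The small proteoglycans that bind TGF-beta differed from each other. Decorin (Dcn), which is also in the fibroblast marker list, had 2134 and 153 CPM in female and male GFP, against 1920 and 2236 CPM in female and male tdTomato. Biglycan (Bgn) had 1065 and 1218 CPM in female and male GFP, against 1788 and 1592 CPM in female and male tdTomato. The protease gene Htra1 had 305 and 109 CPM in female and male GFP, against 206 and 349 CPM in female and male tdTomato.

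Of 16 tested Smads and partners, with medians of -0.88 and -2.32, 5 were at least 2-fold lower in both suspensions: Zfyve9, Smurf2, Wwp1, Trim33 and Tgfbrap1. Zfyve9, the anchor that brings Smad2 and Smad3 to the receptor, was at 0 in both GFP libraries, against 21.5 and 14.5 CPM in female and male tdTomato. Feedback genes that TGF-beta induces were present throughout. Pmepa1 had 515 and 702 CPM in female and male GFP, against 580 and 463 CPM in female and male tdTomato. Smad7, the inhibitory Smad, had 103 and 94.7 CPM in female and male GFP, against 152 and 83.7 CPM in female and male tdTomato. Skil, a Smad co-repressor, was high in male GFP alone, at 253 and 1060 CPM in female and male GFP, against 308 and 279 CPM in female and male tdTomato. Smad4, the Smad that the receptor-activated ones share, had 18.8 and 155 CPM in female and male GFP, against 150 and 42.9 CPM in female and male tdTomato, in opposite directions in the suspensions.

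Of 19 tested transcriptional targets, with medians of -0.75 and -0.12 (the male one turned to 0.12 with DESeq2's size factors), 3 were at least 2-fold lower in both suspensions: Tgfbi, Col1a1 and Tnc. Tnc, the matrix glycoprotein tenascin-C, had 0 and 0.106 CPM in female and male GFP, against 54.4 and 40.1 CPM in female and male tdTomato. The abundant targets were closer. Acta2, smooth muscle actin, had 6738 and 4083 CPM in female and male GFP, against 4890 and 3692 CPM in female and male tdTomato. Tagln, an actin-binding protein of smooth muscle, had 3722 and 2406 CPM in female and male GFP, against 3027 and 3405 CPM in female and male tdTomato. With TMM scaling, Acta2 was on the GFP side in both suspensions (1.38-fold and 1.11-fold), and Tagln was not. The male side of Acta2 depends on the scaling, as its fold is smaller than the gap between the male TMM factors (0.931 in GFP and 1.08 in tdTomato). Ccn2, a secreted matrix signal, had 2101 and 3477 CPM in female and male GFP, against 2199 and 2022 CPM in female and male tdTomato. Timp3, a matrix-bound protease inhibitor, had 730 and 2379 CPM in female and male GFP, against 868 and 949 CPM in female and male tdTomato, and male GFP was the high library for both.

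For each of the 10 genes, the most similar pattern over the 4 libraries was sought among the other 9 and the 62 pathway genes. Likeness was the largest absolute difference between centred log2 CPM values in any library, so that smaller is closer. The closest pair was Ltbp1 and Postn, a matrix protein, at 0.14. Tgfb1 was closest to Acta2 at 0.27, Ltbp3 to Ccn2 at 0.28, Tgfbr3 to Mmp14 at 0.41, Tgfb2 to Pmepa1 at 0.44 and Tgfbr2 to Aspn at 0.50. Looser matches were found for Tgfbr1 with Tgfbr2 (0.69), Ltbp2 with Bmp1 (0.80), Tgfb3 with Ltbp2 (0.90) and Ltbp4 with Smad2 (1.07). Of the 15054 other tested genes, 12 were closer to Ltbp1 than Postn was and 485 were closer to Ltbp4 than Smad2 was, so these matches single out no partner among all genes.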

How the data were processed

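The authors deposited 1 table of expected counts (estimated read numbers per gene, with decimals, unscaled between the 4 libraries). The submitters' processing notes name fastp, HISAT2 and StringTie with build GRCm39 and give no versions. Which program counted reads, and on which annotation release, is not given in the sources used here. Per the labels, mRNA was reverse transcribed from its poly(A) tail by the SMART-Seq V4 kit, amplified by PCR and cut by Tn5, and this kit does not mark strand.

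Counts were rounded. edgeR 4.0.16 (R 4.3.3) kept genes by filterByExpr at a minimum of 10 counts and fitted the suspension, which a GFP library shares with its tdTomato partner, as a block. This left 1 residual degree of freedom, and p-values were adjusted by Benjamini-Hochberg over 15055 genes at 0.05. TMM factors were 0.923 and 0.931 in female and male GFP against 1.07 and 1.08 in female and male tdTomato. DESeq2 1.42.0, limma-voom (limma 3.58.1), other scalings, no filter, no block and each library left out were alternatives. Folds within a suspension or colour have 1 library on each side, an exact 95% binomial interval and no test. Gene names came from a table that matched 76.4% of gene identifiers, and 162 of the 176 listed symbols were matched. Lengths came from GENCODE M21 (build GRCm38), so no gene coordinates are given in the build of the counts.

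The 10 genes, the pathway and marker lists and the tests were chosen with earlier results of these data known. Named pathway genes were the 4 most abundant of each list, the gene with the largest fold in each direction by the smaller fold of both suspensions, and genes called by the test. Other genes are named where a count of 5 or fewer lists them. Pdgfra, Mfap5, Erg, Rgs5, Cd14, Flt1, Ptprc, Dct, Tyr, Mitf and Kit were chosen after their values were seen.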

Additional observations from a re-analysis of the deposited data

Results flagged for a closer look

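In 3 of the 10 genes the TMM-scaled ratio of GFP over tdTomato had opposite signs in the suspensions, each beyond its counting interval or bound. The share of all genes that meet this condition was not counted. With 1 library per sex and colour the difference between suspensions was not tested, and sex and pooling cannot be told apart. By sign alone, whatever the interval, the suspensions were opposite for 5 of the 10 and for 45.8% of all genes.

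For Ltbp2 the log2 ratio was 0.96 in the female suspension and -6.84 in the male one, a difference of 7.80 (female minus male), with 0 counts in male GFP. Ltbp1 gave -0.71 in the female suspension and 0.30 in the male one, a difference of -1.01. Ltbp3 gave -0.18 in the female suspension and 0.63 in the male one, a difference of -0.80. The signs of these 3 genes held with the other scalings, for which no intervals were computed. The female ratio of Ltbp3 shrank to -0.05 with DESeq2's size factors, and the male ratio of Ltbp1 to 0.08 with library totals.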

How the results depend on the processing

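No alternative called any of the 10 genes, in either comparison. Over all genes, GFP over tdTomato gave 1109 calls with DESeq2 and 0 under every other setting, and female over male gave 120 with DESeq2, 2 with no filter on low counts and 0 otherwise. The edgeR fit with no replicate block, in place of the pairing by suspension, called 0 genes in both comparisons and 0 of the 10. Tgfb1, Tgfb2, Tgfbr1, Tgfbr2 and Ltbp4 kept the direction of their log2 ratio of GFP over tdTomato in every fit listed in the methods. With 1 library left out, and then without the block, Tgfbr1 ranged from 0.84 to 2.22 and Ltbp4 from -4.36 to -2.57. The female suspension alone, an alternative added after seeing the data, gave the same counts of the 10 genes at least 2-fold apart, 1 in each direction. Tgfb2, Tgfbr1 and Ltbp1 led their classes per length in all 4 libraries with either of the other transcript lengths tried, of which the longest protein-coding one was added after seeing the data. Vasn, in the accessory list, became the 1 gene at least 2-fold higher in both suspensions with DESeq2's size factors, under which Itgb3 left the latency release genes at least 2-fold lower in both (2 in place of 3).

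Signs turned for the other 5 genes and in the comparison of suspensions, and the cause was not tested. For GFP over tdTomato, the edgeR log2 ratio of Tgfbr3 was 0.16 and turned to -0.064 with library totals, and that of Ltbp2 was -3.62 and turned to 0.34 with no replicate block. With 1 library left out, Tgfb3 ranged from -11.18 to 0.25, Tgfbr3 from -0.50 to 0.95, Ltbp1 from -0.55 to 0.22, Ltbp2 from -11.32 to 1.36 and Ltbp3 from -0.32 to 0.85. The ratio of Tgfb3 was positive only without male GFP, and that of Ltbp3 negative only without it. For female over male, Tgfb2 was 0.03 and turned to -0.033 with DESeq2's size factors, -0.033 with DESeq2, -0.034 with limma-voom and to -0.12 with no replicate block. With 1 library left out, Tgfb2 ranged from -0.64 to 0.73, Tgfbr2 from -0.029 to 1.92, Ltbp1 from -0.55 to 0.082 and Ltbp4 from -1.64 to 3.65. In those fits the lone library of a colour or sex is assumed to vary like the others. The depth limits Tgfb1, at 29 to 61 counts. Male GFP had the lowest total and the fewest genes with at least 10 counts, and the cause of its undetected genes was not tested.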
